A study of Mus musculus with 8 samples.

Results

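In embryonic stem cells without KLF4, 9492 contacts were recorded between an end of a gene and a site away from every annotated gene end. They were rows of the KO pool of RNA polymerase II HiChIP that joined 2 different anchors (the regions at the ends of a contact), held at least 2 paired-end tags (PETs, read pairs that span a ligation), and lay from 20 kb to under 1 Mb apart by their midpoints. They were chosen by their PET counts and distances in this pool, so both are given below as descriptions, without a test. Exactly 1 of their anchors lay within 1 kb of the start or end coordinate of a RefSeq gene. The loops made up 9492 of the 118475 rows of the KO file, and 41.3% of its 23004 rows of the same distance and PET range. Of the other rows in that range, 10028 had a gene end at both anchors and 3484 at neither.

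The study compared unmodified (WT) E14 cells, a mouse embryonic stem cell line from the blastocyst, with E14 cells in which KLF4 was knocked out (KO), by RNA-seq with 2 libraries of each genotype and by HiChIP for RNA polymerase II with 2 samples of each. All samples share 1 description of the culture, which names a gelatin coat, fetal bovine serum and LIF. One version of that medium adds the MEK inhibitor PD0325901 and the GSK inhibitor CHIR99021, and which version fed which sample is not stated in the labels. The labels used here do not say how the gene was cut or from how many clones the KO cells came. The loops came as 1 file per genotype that mixes both replicates, so no PET value below has a spread between samples and no contact was tested between genotypes. The KO pool held 401726 PETs in 118475 rows over 18293 anchors, and the WT pool 35189 PETs in 19914 rows over 8373 anchors. A contact not listed in the WT pool was not detected there, which does not show that it is absent.

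KLF4 is a zinc finger transcription factor that binds GC-rich sequences and belongs to the network that keeps mouse embryonic stem cells in the naive state, the state of the early epiblast. HiChIP ligates chromatin ends that lie close together in the nucleus, enriches them for a chosen protein and sequences across the junction, so that each PET ties together a pair of places near that protein. RNA polymerase II sits at promoters, along transcribed genes and at active enhancers, and its contacts from a promoter to a site outside promoters include contacts with enhancers.

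The promoters below belong to 6 genes whose loops are described first: 2 core pluripotency genes and 4 genes at loops with many PETs. Each runs from 250 bases before to 50 bases after the RefSeq start (GRCm38.p6, the mm10 assembly), written in the direction of transcription. Capitals mark every base in a match to the KLF and SP family motif CCNCNCCC or its reverse complement GGGNGNGG, where overlapping matches count separately and a run of G can hold several.

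Sox2 chr3:34649745-34650044, plus strand: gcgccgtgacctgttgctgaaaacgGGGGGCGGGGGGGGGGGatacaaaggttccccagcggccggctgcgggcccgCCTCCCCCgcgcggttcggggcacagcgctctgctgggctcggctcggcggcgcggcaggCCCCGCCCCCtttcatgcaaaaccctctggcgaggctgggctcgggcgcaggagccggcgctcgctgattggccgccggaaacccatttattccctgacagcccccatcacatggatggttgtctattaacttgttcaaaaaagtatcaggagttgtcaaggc
Nanog chr6:122707239-122707538, plus strand: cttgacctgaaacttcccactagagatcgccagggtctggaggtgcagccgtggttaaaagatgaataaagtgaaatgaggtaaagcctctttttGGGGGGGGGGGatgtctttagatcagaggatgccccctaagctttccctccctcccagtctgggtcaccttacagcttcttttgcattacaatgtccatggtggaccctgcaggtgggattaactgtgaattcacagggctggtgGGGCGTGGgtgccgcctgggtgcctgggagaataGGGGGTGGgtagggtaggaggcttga
Irf2bpl chr12:86884765-86885064, minus strand: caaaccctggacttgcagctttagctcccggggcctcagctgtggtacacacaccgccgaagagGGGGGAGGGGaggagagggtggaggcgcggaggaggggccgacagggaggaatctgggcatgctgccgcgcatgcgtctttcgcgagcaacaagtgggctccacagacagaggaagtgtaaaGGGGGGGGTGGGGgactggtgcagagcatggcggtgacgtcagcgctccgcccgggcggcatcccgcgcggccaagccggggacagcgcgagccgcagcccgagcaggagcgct
Klf9 chr19:23140976-23141275, plus strand: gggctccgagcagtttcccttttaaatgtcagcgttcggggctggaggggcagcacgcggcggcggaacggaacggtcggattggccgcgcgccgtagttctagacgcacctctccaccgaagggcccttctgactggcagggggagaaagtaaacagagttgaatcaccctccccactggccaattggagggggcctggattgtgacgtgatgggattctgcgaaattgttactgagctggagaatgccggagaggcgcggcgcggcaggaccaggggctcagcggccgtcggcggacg
Etv5 chr16:22439521-22439820, minus strand: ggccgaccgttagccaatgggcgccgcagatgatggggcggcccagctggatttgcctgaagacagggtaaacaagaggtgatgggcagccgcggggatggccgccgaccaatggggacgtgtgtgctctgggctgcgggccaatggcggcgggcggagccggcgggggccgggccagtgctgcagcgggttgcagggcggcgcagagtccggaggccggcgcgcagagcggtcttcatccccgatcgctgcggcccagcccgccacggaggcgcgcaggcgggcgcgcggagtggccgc
Trim71 chr9:114564320-114564619, minus strand: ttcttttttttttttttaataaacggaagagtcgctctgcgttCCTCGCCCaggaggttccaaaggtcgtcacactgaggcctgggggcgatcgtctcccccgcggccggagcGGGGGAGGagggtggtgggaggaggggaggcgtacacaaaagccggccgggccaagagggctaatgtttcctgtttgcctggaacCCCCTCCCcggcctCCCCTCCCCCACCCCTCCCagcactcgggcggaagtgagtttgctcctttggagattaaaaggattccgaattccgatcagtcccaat

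These windows held 9 matches at Sox2, 6 at Nanog, 5 at Irf2bpl and 7 at Trim71, and none at Klf9 and Etv5. Among the 1841 protein-coding genes with a start at a gene end anchor and a promoter in the RefSeq table, 69.1% had at least 1 match, against 50.4% of all 10629 protein-coding promoters in that table. Over genes of every kind the share was 66.3% of 2544 starts at the loops, 66.5% of 1589 starts found only at loops with a gene end on both sides, and 44.1% of all 19876 promoters. The narrower KLF motif CCCCACCC was in 11.2% of protein-coding promoters at the loops and 9.46% of all protein-coding ones. The windows also differed in base composition, with a median GC content of 61% at the loops and 54% over all protein-coding promoters. The YY1 motif AAGATGGCG, searched on both strands like all motifs here, was in 4.45% of promoters at the loops and 1.74% of all protein-coding ones. The SOX motif CATTGTT was in 1.63% and 4.13%, the OCT motif ATGCAAAT in 1.68% and 2.04%, and the ESRRB motif TCAAGGTCA in 0.109% and 0.386%. Over genes of every kind, starts at the loops were also set beside starts found only at loops with a gene end on both sides. YY1 was in 3.77% and 2.83%, SOX in 1.97% and 1.51%, OCT in 1.65% and 1.57%, and ESRRB in 0.0786% and 0.503%. Here the ESRRB shares stand on 2 and 8 promoters. CCCCACCC was in 11.4% and 10.3%, and CTCF in 3.38% and 3.52%. A match describes letters in the window and does not show that a factor binds there.

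Sox2, which encodes a core pluripotency factor, had 2 of these loops, both to sites downstream of the gene and outside any gene. The anchor at chr3:34647796-34655366 joined a site at chr3:34754817-34765567, 109 kb away, by 36 PETs in the KO pool and 7 in the WT pool, and a nearer site, 85.6 kb away, by 5 PETs in KO and 0 in WT. An enhancer cluster known as the Sox2 control region lies downstream of this gene in mouse embryonic stem cells. The farther site had the larger PET count in both pools.

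Nanog, another core pluripotency gene, sat with the pseudogenes Gm10224 and Gm10420 at a gene end anchor with 14 distal partners from 25.4 to 381 kb away, 152 PETs in all. Its largest loop in KO, 45 PETs over 58.8 kb, ended inside Slc2a3, a glucose transporter gene, at chr6:122757921-122774326. That pair had 2 PETs in the WT pool. The order was different in WT, where the shorter loops of 35.1 kb and 25.4 kb had 20 and 26 PETs, against 30 and 15 in KO. A WT row can overlap more than 1 of these neighbouring KO pairs, and counted once each the WT rows at the Nanog anchor held 34 PETs. The same Slc2a3 site also met the anchor of Gdf3, a TGF-beta family gene, over 160 kb with 9 PETs, the largest of that gene's 10 loops.

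Irf2bpl, which encodes a nuclear RING finger protein, shared a 52.3 kb anchor on chromosome 12 with the noncoding Gm26698. This anchor held 3 of the 5 loops with the most PETs, with 176 PETs over 100 kb, 141 over 30.8 kb and 106 over 31.7 kb. A further loop of 40 PETs spanned 404 kb and ended inside Esrrb, a naive pluripotency gene, and 8 and 2 more PETs ended at other sites inside that gene. In the WT pool none of the 12 Irf2bpl loops was listed, although a WT anchor overlapped the gene end anchor.

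Klf9, a relative of Klf4, shared its anchor with both ends of the noncoding 2410080I02Rik. This anchor reached a site 48.5 kb upstream and outside any gene by 104 PETs, and 6 other loops of Klf9 held 4 to 11 PETs. The WT pool had 1 PET at 1 of the 7 loops. Etv5, an ETS factor of the FGF and ERK pathway, had 71 PETs over 28.5 kb to a site inside its own gene (4 in WT), 12 PETs over 109 kb and 2 PETs over 68.1 kb. Trim71, an RNA-binding pluripotency gene, had 75 PETs over 25.5 kb, also into its own gene, and 2 to 8 PETs at its other 7 loops.

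**Figure D1:**
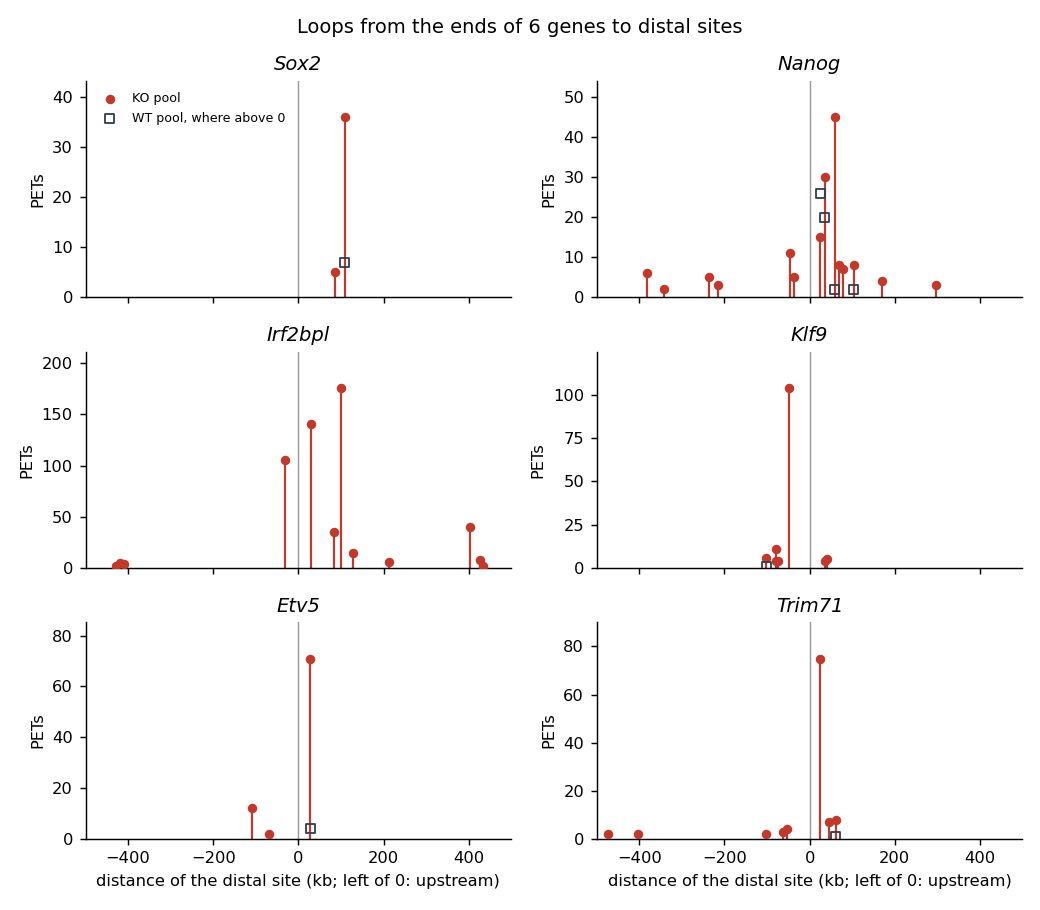
PETs (vertical axis) of each loop from the gene ends of Sox2, Nanog, Irf2bpl, Klf9, Etv5 and Trim71 against the distance of its distal site in kb, with sites upstream of the gene left of 0. Red points are the KO pool and open squares the WT pool where it lists the pair; 1 loop dominates at Sox2, Klf9, Etv5 and Trim71 (36, 104, 71 and 75 PETs), while Irf2bpl has 3 above 100 and Nanog spreads over 14.

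Other loops with many PETs stood at genes of varied roles. Pigl, an enzyme gene of GPI anchor synthesis, had loops of 124, 97 and 82 PETs, the first into its own gene and the others into its neighbour Ncor1, a corepressor gene. B4galt6, a glycosphingolipid synthesis gene, had 109 PETs over 25 kb, and Eef1a1, a translation elongation factor gene, 90 over 20.5 kb. None of these had a WT PET. Bicral, a chromatin remodelling subunit gene, had 98 PETs and 3 in WT. Gm46933 had 96 and 1, the anchor at the ends of Chaserr and Chd2 83 and 3, and Ptma, the prothymosin alpha gene, 77 and 11. A 34.8 kb anchor on chromosome 14 covered ends of Glud1, Sncg, Mmrn2 and Fam25c and met a site inside Glud1 by 87 PETs, with no WT anchor at either side. Mtf2 and Jarid2 encode partners of the Polycomb repressive complex. The largest loop of Mtf2 had 71 PETs over 23.7 kb and none in WT, its next had 67 and 1 in WT, and the largest loop of Jarid2 had 37 and 4.

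The 9492 loops held 39373 PETs, 9.80% of all KO PETs, a total that includes rows joining an anchor to itself. The median loop had 3 PETs, 48.8% of loops had 2, and 6.02% had 10 or more. The rule set the lower bound: 4628 pairs had exactly 2 PETs and were kept, and 16299 pairs with 1 PET but otherwise alike were not. Distances had a median of 92.0 kb with quartiles of 43.6 and 202 kb, and the shortest and longest were 20003.5 and 999234 bp, next to excluded pairs of 19982.5 and 1002134.5 bp. PETs were lower at longer distance (Spearman's rho -0.37 over the 9492 loops) and higher where the anchors were wider (rho 0.38). Both values describe loops that share anchors, 1 library pool and its depth. Of loops from 20 to 50 kb, 13.2% had 10 or more PETs, against 5.28% from 50 to 100 kb and 1.07% from 200 to 500 kb. In that last range the Irf2bpl to Esrrb contact had the most PETs, 40.

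**Figure D2:**
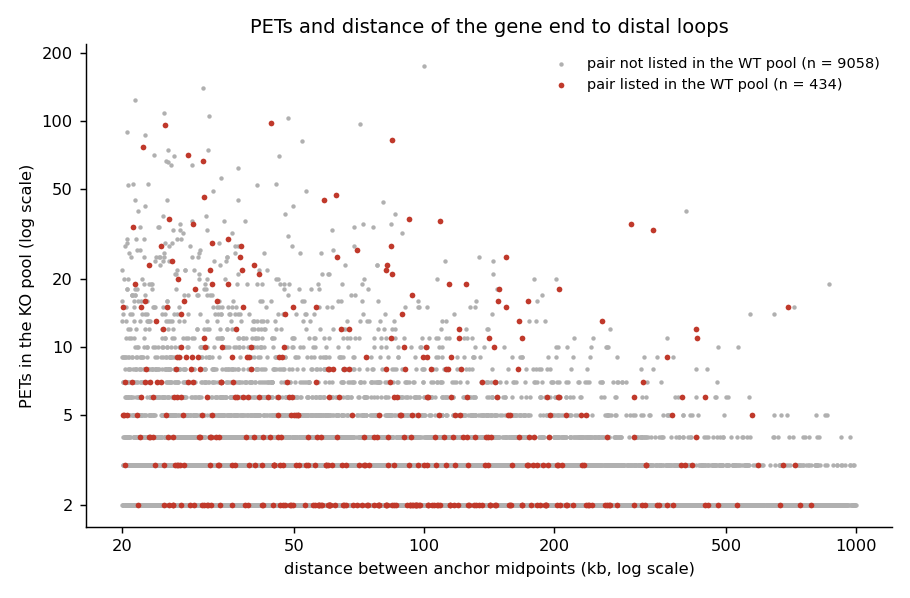
PETs of each of the 9492 loops in the KO pool against the distance between anchor midpoints in kb, both on log scales. Red points are the 434 loops whose pair of anchors is also listed in the WT pool and grey points all others; PETs fall with distance, and the red points are spread over the range of distances.

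At the gene side, the loops used 4448 anchors with a median width of 3.77 kb, of which 92.5% contained a gene end and the rest lay up to 999 bp from one. The genes there numbered 6151, of which 4414 were protein-coding, 1106 long noncoding, 190 pseudogenes and 116 miRNA genes. A single gene had its end at the anchor in 58.3% of loops. The strand, and with it the difference between a start and an end of transcription, came from the promoter table. It was known for at least 1 gene at the anchor in 7759 loops. By the genes of known strand, 60.1% of these touched only gene starts, 14.4% only gene ends and 25.5% both. Genes of unknown strand at the same anchors were left out of these shares. In the 3040 loops with 1 gene at the anchor by its start alone, the distal site was upstream in 47.3%, inside the gene in 11.9% and beyond its far end in 40.8%.

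At the distal side there were 4013 anchors with a median width of 3.06 kb, of which 69.9% lay wholly inside a gene. Their median gap to the nearest gene end was 7.77 kb, the nearest was 1004 bp, just past the rule's limit, and the farthest was 203 kb. In 10.3% of loops the distal site lay inside a gene whose end was at the other anchor, as at Etv5 and Trim71. Between the anchors, 18.9% of loops had no end of a protein-coding gene, against 8.56% of loops with 2 gene ends and 34.2% of loops with none. That share was 42.4% for loops from 20 to 50 kb and 1.87% from 200 to 500 kb, so longer loops nearly always passed over an end of a protein-coding gene.

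Most anchors had few partners. Of gene end anchors, 49.5% had 1 distal partner and 0.967% had 10 or more, and of distal anchors 44.0% had 1 and 1.05% had 10 or more. The gene end anchor with the most partners, 19, was at Ptges, the prostaglandin E synthase gene, with 105 PETs in all and at most 27 in 1 loop. Usp7, a deubiquitinase gene, had 16 partners and 269 PETs, Pigl 15 and 382, the deubiquitinase gene Usp48 15 and 149, and Bcar1, an adhesion adaptor gene, 14 and 69. On the distal side, a site inside Abcc5 at chr16:20355659-20377401 and a site inside the retinoic acid receptor gene Rarg at chr15:102237966-102252252 each met 17 gene end anchors. The Abcc5 site reached the ends of Parl, Eif2b5, Dvl3, Ap2m1, Psmd2 and Eif4g1 among others, with 152 PETs in all. The Rarg site reached Eif4b, Espl1, Sp1, Map3k12 and Atf7 among others, with 145. Both lie in stretches dense with genes. The named anchors were wide. Widths were 14.6 kb at Ptges, 37.5 at Usp7, 31.1 at Pigl, 15.7 at Usp48 and 11.4 at Bcar1, against a median of 3.77 kb at gene ends. The Abcc5 and Rarg sites spanned 21.7 and 14.3 kb, against a median of 3.06 kb at distal sites. How far the number of partners follows anchor width was not tested.

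The WT pool met the 2 sides of these loops unequally. A WT anchor overlapped 61.5% of the gene end anchors (95% Wilson interval 60.0% to 62.9%) and 14.7% of the distal anchors (13.7% to 15.9%) by at least 1 base, against 35.7% of all KO anchors. Gene end anchors were also wider, and 1320 of them against 795 distal anchors were among those with at least 65 PETs in all. With anchors split by their total PETs in the KO file into 4 bins of similar size, the share met ran from 51.3% to 73.2% at gene ends and from 12% to 21.6% at distal sites, and the gap between the sides was present in each bin. Gene end anchors were also wider within each bin, with medians of 2.85 against 2.44 kb in the lowest and 6.91 against 6.12 kb in the highest. The split did not hold width equal, and the cause of the gap was not tested. The intervals cover counting error only.

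**Figure D3:**
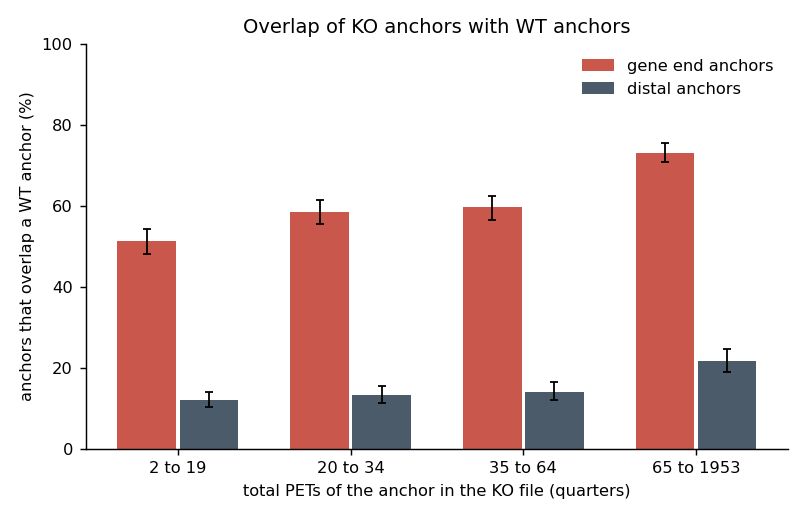
Share of KO anchors of the loops that overlap an anchor of the WT pool, in percent, for gene end (red) and distal (dark) anchors, by total PETs of the anchor in the KO file; bars start at 0 and lines are 95% Wilson intervals. Gene end anchors are met at rates of 51.3% to 73.2% and distal anchors at rates from 12% to 21.6%.

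Both anchors were met in 12.1% of loops, only the gene end in 51.9%, only the distal site in 6.10% and neither in 29.9%. The pair itself was listed in WT for 434 loops, 4.57%, against 19.3% of loops with 2 gene ends and 1.09% of those with none. Once both anchors were met, the pair was listed for 37.8% of the loops (95% Wilson interval 35.0% to 40.6%), 41.6% of loops with 2 gene ends (40.2% to 43.0%) and 33.9% of the 112 loops with none (25.8% to 43.1%). With both anchors met, the share listed was 25.9% for loops of 2 PETs and 71.6% for loops of 10 or more. By the same rule the WT pool gave 499 gene end to distal loops, 25.6% of its 1951 loops in this range. Raising the PET minimum to 3, 5 or 10 left that share between 22.7% and 32.3% in WT and between 38.9% and 40.9% in KO, where the highest WT minimum left 31 loops in all. Per 100 KO PETs, the WT pool held 2.17 PETs at the gene end to distal loops of KO. The value was 9.45 at KO loops with 2 gene ends, 0.514 at those with none and 8.76 over the whole files. The whole files also count rows that join an anchor to itself, with 164921 PETs in KO and 11603 in WT. The loops were chosen by their KO PETs and the whole files were not, and the cause of the differences between these values was not tested.

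RNA-seq did not enter the choice of the loops, and tests its genes over the 4 libraries. Each library held between 8287497 and 9762190 gene counts, and the embryonic stem cell markers summed to between 6861 and 8307 CPM (read counts scaled to a common library size) in all of them. Summed fibroblast markers were 153 to 187 CPM, with Dcn, Col3a1, Postn, Acta2 and Lum at 4 counts or fewer. Summed neural markers were 26.6 and 30.2 CPM in WT and 43.7 and 66.6 CPM in KO. Called higher in KO were 3 of the 5 tested neural markers, 2 of 10 stem cell markers and 1 of 3 tested endoderm markers. No tested fibroblast marker was called, and over all tested genes 2.96% were called higher. Klf4 itself, the targeted gene, had 2882 and 2421 counts in WT and 0 in both KO libraries, at least 1594-fold lower against a floor of 3 counts over the KO group, and it had none of these loops. Nothing in the labels says whether the libraries came from separate cultures, so p-values measure only the spread between these libraries.

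Of the 6151 genes at gene end anchors, 5216 were in the count files by symbol and 4440 passed the filter on low counts. In KO 99 of them were higher and 171 lower at a false discovery rate (FDR) of 0.05 in edgeR's quasi-likelihood test, or 2.23% and 3.85%, together 6.08%. Over all 15517 tested genes the shares were 2.96% higher and 5.34% lower, together 8.3%, and over the 14137 with a RefSeq position 3.08% and 5.49%, together 8.57%, so that the genes of the loops were called no more often than genes at large. The lower share was not particular to these loops. Genes with an end at any KO anchor, which include them, were called in 5.97% of 9671 cases. Tested genes with an end at no KO anchor were called in 14.2% of 4466. The genes of the loops had a median log2 fold change of -0.0013, against -0.0094 over all tested genes with a position. Without the filter on low counts edgeR called none of these genes. Leaving out WT library 1 gave 296 higher and 377 lower, leaving out KO library F gave 61 and 99, leaving out KO library B gave 84 and 90, and DESeq2 gave 155 and 221.

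Genes whose largest loop had 10 or more PETs numbered 391 among those tested, with 21 higher (5.37%) and 20 lower (5.12%). Where the largest loop had 2 PETs, 30 of 1688 were higher (1.78%) and 68 lower (4.03%). At 3 to 4 PETs 22 of 1515 were higher (1.45%) and 47 lower (3.10%), and at 5 to 9 PETs 26 of 846 (3.07%) and 36 (4.26%). These PETs are of the KO pool and entered the choice of the loops. They may not be independent of RNA in KO, so the shares are descriptions only. Genes that held a distal site inside them were higher in 43 of 1731 cases (2.48%) and lower in 102 (5.89%). Genes at loops with 2 gene ends, many of which are the same genes, were higher in 128 of 6340 cases (2.02%) and lower in 222 (3.50%).

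Chromosome 14 stood apart. Its 147 tested genes at gene end anchors had a median log2 fold change of -0.75, with 5 higher and 28 lower, and all 467 tested genes of the chromosome had a median of -0.63. On the other chromosomes the median at the loops ran from -0.07 to 0.21. Without chromosome 14, 94 genes of the loops were higher and 143 lower of 4293 tested. Over all 13670 tested genes with a RefSeq position on the other chromosomes, 3.07% were higher and 5.08% lower. Calls over all 467 tested genes of chromosome 14 were not counted. What share of the single calls there moves with the whole chromosome was not tested.

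**Figure D4:**
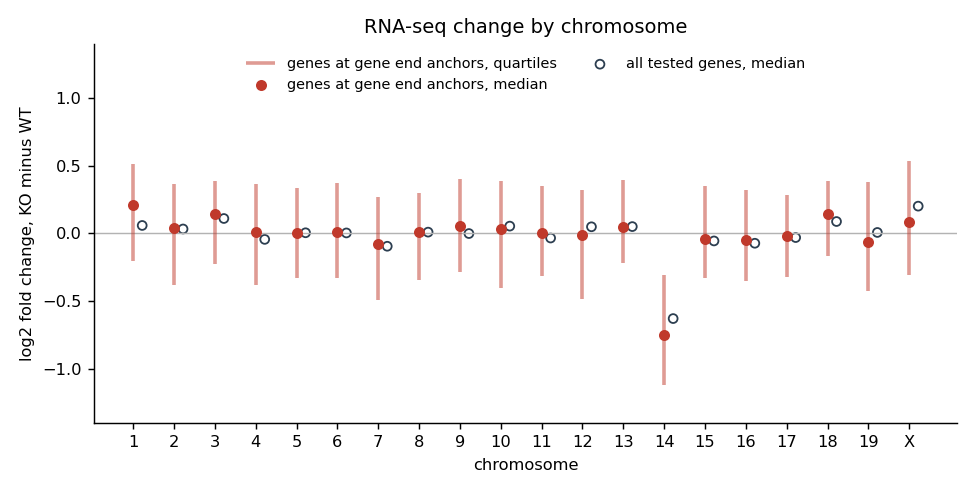
Log2 fold change, KO minus WT, by chromosome: filled points are medians of tested genes at gene end anchors of the loops, bars their quartiles, and open circles medians of all tested genes. Chromosome 14 lies at -0.75, and the others lie between -0.07 and 0.21.

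Among the genes with the loops shown above, few passed the test for a change in RNA. A gene that did not pass may still have changed. In simulated counts the same test recovered 18 of 100 planted 2-fold changes and 88 of 100 planted 4-fold changes. Sox2 had 5026 and 4262 counts in WT and, in the KO libraries B and F, 4606 and 4750 (log2 fold change 0.16, SE 0.24, edgeR FDR 0.740). Nanog had 7377 and 7115 in WT and 5181 and 4830 in KO (-0.39, SE 0.25, edgeR FDR 0.387), so the raw counts did not overlap but the change did not pass the test. Irf2bpl had 1846 and 1397 in WT and 776 and 1085 in KO (-0.65, SE 0.27, edgeR FDR 0.180). For Klf9 the values were 1280 and 525 in WT and 953 and 1250 in KO, so that the groups overlapped (edgeR FDR 0.538). It passed the test only without WT library 1 (log2 fold change 1.19, edgeR FDR 0.00789, over alternatives up to 0.923). Trim71 overlapped as well, with 2301 and 1998 against 1665 and 2508, as did Pigl with 493 and 336 against 243 and 382 and Usp7 with 4471 and 3335 against 3782 and 4978.

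Among the genes named for the PETs or the number of partners of their loops, the following 6 passed the test. Jarid2 rose, from 2290 and 1688 counts in WT to 3294 and 4863 in KO (log2 fold change 1.18, SE 0.29, edgeR FDR 0.0427), and lost its call without KO library F or without WT library 2 (edgeR FDR 0.371 and 0.0531, lowest over alternatives 0.00287). Ptges fell from 594 and 619 to 100 and 197 (-1.88, SE 0.35, edgeR FDR 0.0169), and lost its call without KO library B (edgeR FDR 0.0644, from 4.32e-05 to 0.131 over alternatives). The other 4 share the chromosome 14 anchor. Glud1, the glutamate dehydrogenase gene, went from 4506 and 3836 counts to 1473 and 1627 (-1.28, edgeR FDR 0.0180), Mmrn2 from 657 and 495 to 80 and 99 (-2.54, edgeR FDR 0.00383), Sncg from 83 and 97 to 14 and 8 (-2.87, edgeR FDR 0.0124) and Fam25c from 229 and 481 to 72 and 51 (-2.38, edgeR FDR 0.0157). Each lay below the median of its chromosome, but they are listed because they were called, so this is a description only. Glud1 lost its call without either KO library (edgeR FDR 0.172 and 0.141, lowest over alternatives 0.000189).

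Of the 9 formative and primed genes at the loops, which mark the step after the naive state, 7 rose and none fell, where 14 of 18 tested genes of the whole list rose. Dnmt3b, a de novo DNA methyltransferase gene, had 720 and 519 counts in WT and 1879 and 1936 in KO, 3.42-fold higher (edgeR FDR 0.00771), with 3 loops of at most 3 PETs. The ETS factor gene Etv4 had 265 and 300 in WT and 713 and 1186 in KO, 3.71-fold higher (edgeR FDR 0.0109), with up to 6 PETs. The SOX factor gene Sox4 had 80 and 50 against 438 and 647, 9.24-fold higher (edgeR FDR 0.00357), and a single loop of 2 PETs over 142 kb. In these 3 genes the KO libraries lay well above both WT libraries, while the loops themselves were small.

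Id1, a BMP target gene, went from 49 and 94 counts to 350 and 195, 4.21-fold (edgeR FDR 0.0269), with 5 loops of up to 9 PETs. Tcf15, a bHLH factor gene, went from 87 and 206 to 583 and 515, 4.13-fold (edgeR FDR 0.0217), and the largest of its 4 loops had 7 PETs in KO and 2 in WT. Zic2 and Zic5, neighbouring zinc finger genes on chromosome 14, both met the site chr14:122414287-122418787 by 2 PETs each. Zic2 had 107 and 99 counts in WT and 242 and 210 in KO, and Zic5 97 and 73 in WT and 205 and 221 in KO (2.43-fold and 2.78-fold, edgeR FDR 0.0369 and 0.0281). Both rose on a chromosome whose median was lower. Zic2 lost its call without either KO library and without WT library 2 (edgeR FDR 0.0569 to 0.165, lowest over alternatives 0.0112), and Zic5 lost it without KO library F (edgeR FDR 0.0567, from 0.00368 to 0.123 over alternatives). Etv5, which had the largest loop of this list, went from 2974 and 2453 to 4046 and 4506 (log2 fold change 0.80, SE 0.25) and did not pass in edgeR (FDR 0.0846). It passed in DESeq2 (FDR 0.0382) and in edgeR without WT library 1 (FDR 0.0465). Nodal, the TGF-beta ligand gene, had 629 and 746 in WT and 453 and 484 in KO (-0.41, SE 0.25, edgeR FDR 0.358).

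Of the 10 naive pluripotency genes at the loops, 4 fell and none rose, where 6 of 20 in the whole list fell. The 6 include Klf4, the targeted gene, whose fall the knockout sets and which had none of these loops. Tdh, the threonine dehydrogenase gene of chromosome 14, went from 4120 and 5080 counts in WT to 1133 and 1115 in KO, 3.70-fold lower (edgeR FDR 0.00576), with 1 loop of 2 PETs. The junction gene Jam2 went from 3755 and 3667 to 781 and 1345, 3.16-fold lower (edgeR FDR 0.0158), and all 4 of its loops, of up to 10 PETs, stayed inside the gene. Spp1, the osteopontin gene, went from 7481 and 8423 to 2400 and 3411, 2.47-fold lower (edgeR FDR 0.0276), and the T-box factor gene Tbx3, with 11 loops of up to 7 PETs, from 3565 and 2744 to 1050 and 1432, 2.29-fold lower (edgeR FDR 0.0319). KO and WT counts did not overlap in any of the 4, nor in Nanog, which was not called. Jam2 lost its call without KO library B, and Spp1 and Tbx3 without either KO library (edgeR FDR 0.0854 to 0.291, lowest over alternatives 2.11e-05). The Klf4 relatives Klf2 and Klf5 overlapped between genotypes, with 2045 and 2994 against 3151 and 1798 counts for Klf2 and 1100 and 400 against 539 and 1096 for Klf5. Klf5 passed the test only without WT library 1 (log2 fold change 1.15, edgeR FDR 0.0191, up to 0.897 over alternatives).

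Of the 11 general pluripotency genes at the loops, 2 rose and 1 fell, where 7 of 18 in the whole list rose and 1 fell. Lin28a, an RNA-binding regulator of let-7 miRNAs, went from 590 and 538 counts in WT to 2032 and 2087 in KO, 4.05-fold higher (edgeR FDR 0.00376), with loops of at most 3 PETs. Utf1, a chromatin factor gene, went from 493 and 821 to 3082 and 3113, 5.21-fold higher (edgeR FDR 0.00520), with 1 loop of 6 PETs. Gdf3, whose anchor shared the Slc2a3 site with Nanog, fell from 909 and 1082 to 404 and 410, 2.21-fold (edgeR FDR 0.0272), and lost its call without either KO library (edgeR FDR 0.189 and 0.201, lowest over alternatives 0.00189). Pou5f1 had 11256 and 18492 in WT and 14687 and 13051 in KO, an overlap, and Sall4 1701 and 1929 against 1963 and 1847 (edgeR FDR 0.951 and 0.619). Pou5f1 had loops of 6 PETs or fewer, while Sall4 had 10 loops of up to 11 PETs.

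Among 4 early neural genes at the loops, Zic2 rose as above and 2 fell, where 5 of 15 tested genes of the whole list rose and 4 fell. Hes1, a Notch target gene, went from 609 and 911 counts to 205 and 152, 3.85-fold lower (edgeR FDR 0.0112). Msi1, an RNA-binding protein gene of neural progenitors, went from 591 and 633 to 206 and 109, 3.50-fold lower (edgeR FDR 0.0188), and lost its call without KO library F (edgeR FDR 0.0854, from 7.78e-05 to 0.136 over alternatives). Notch1 overlapped, with 617 and 375 against 472 and 506. Of the 18 genes for polymerase II subunits, Mediator, cohesin and their partners that had an end at the loops, none passed the test, in a list of 32 where none did.

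**Figure D5:**
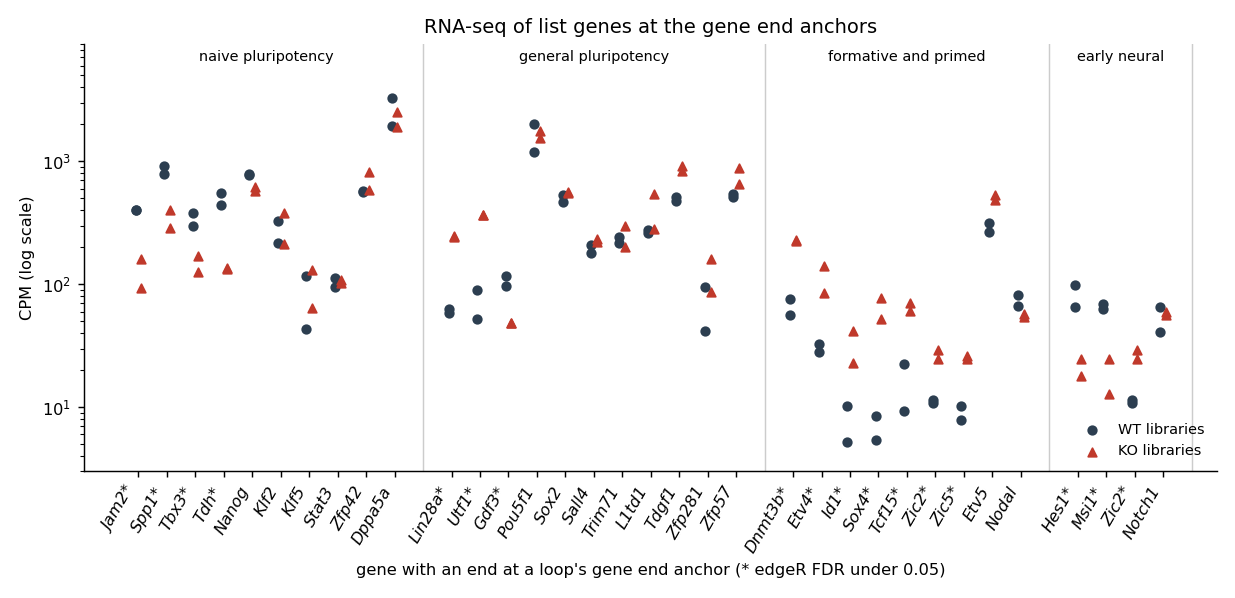
CPM of each library on a log scale for the list genes at gene end anchors of the loops, with WT libraries as dark points and KO libraries as red triangles; an asterisk marks an edgeR FDR under 0.05. The 7 marked formative genes lie higher in KO and the 4 marked naive genes lower. The libraries of the genotypes do not overlap in these genes, nor in unmarked ones such as Nanog, Nodal and Etv5.

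The genes with the largest changes, among called genes averaging 2 CPM or more and without predicted genes, had loops of few PETs, as did most genes: 391 of the 4440 tested genes had a loop of 10 or more. Of the 10 genes that rose most, Spry4, an ERK feedback inhibitor gene, had 32 and 22 counts in WT and 360 and 900 in KO, 25.7-fold higher (edgeR FDR 0.00321), and Slc16a3, a lactate transporter gene, 49 and 77 against 1176 and 989, 19.0-fold higher (edgeR FDR 0.00117). Their largest loops had 5 and 3 PETs, and none of the 10 genes had a loop above 7. The muscle actinin gene Actn3 had 64 and 68 against 598 and 541, and Adam23, an adhesion gene, 164 and 120 against 936 and 1299. Halr1, a noncoding RNA beside the Hoxa genes, had 5 loops of up to 7 PETs and went from 87 and 113 to 463 and 649, 6.14-fold higher (edgeR FDR 0.00390). The other 5 were Sox4, Ankrd34a, Camkv, Jph4 and Mrc2, of which Ankrd34a lost its call without KO library F and Mrc2 without KO library B (edgeR FDR 0.0601 and 0.0790).

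Of the 10 genes that fell most, Pramel6, a gene of naive stem cells and early embryos, had 74 and 89 counts in WT and 0 in both KO libraries, at least 49.1-fold lower against a floor of 3 counts over the KO group (edgeR FDR 0.00376), with 1 loop of 5 PETs. The caudal homeobox gene Cdx1 went from 371 and 618 to 14 and 16, 29.6-fold lower (edgeR FDR 0.00149), with 4 PETs over 213 kb, and the zinc finger gene Zfp951 from 300 and 213 to 2 and 7, 50.1-fold lower (edgeR FDR 0.00227). Aqp3, a water and glycerol channel gene, went from 1396 and 1636 to 160 and 102, 10.4-fold lower (edgeR FDR 0.00199). Pkd2l1 had 105 WT and 2 KO counts in all and Hyal3 100 and 3, ratios per library total of 46.8 (95% exact interval 12.6 to 391) and 29.7 (9.87 to 146). Adgrg6, Smtnl1 and Nynrin were each between 9.63-fold and 18.7-fold lower, and no loop of the named genes that fell most had more than 7 PETs.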

How the data were processed

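RNA-seq and RNA polymerase II HiChIP of WT and KO cells were used, 2 samples of each genotype and assay. Per the submitters' processing notes, the authors worked on mm10 with HiC-Pro 2.11.4, and with DESeq2 1.18.1, HTSeq 0.9.1 and HISAT2 2.1.0. The deposited gene files hold whole-number read counts per Ensembl gene, and the loop files, as deposited, list a PET count for each pair of anchors, with both replicates mixed in 1 file per genotype. The loop caller, its filters, the annotation release and the strand setting are not stated in the labels, so reads of overlapping genes cannot be told apart. The KO count columns carry the letters B and F, and were used as 2 KO libraries without a number.

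Gene ends came from RefSeq (GRCm38.p6), where strand was known only for genes with a listed promoter. Promoter sequences are RefSeq's, and 2544 of 4018 gene starts at the loops had one. Distal sequences were not used here. An anchor was met by WT when it shared at least 1 base with a WT anchor. Records in no gene, which left 34.5% to 36.0% of each file as gene counts, stayed out of library sizes. Counts were tested with edgeR 4.0.16 (R 4.3.3; filterByExpr, TMM, quasi-likelihood F-test on genotype alone, Benjamini-Hochberg over 15517 genes, FDR threshold 0.05). CPM used TMM-scaled library sizes. Scripts were tested on simulated data. Shares have 95% Wilson intervals.

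The loops, gene lists and alternatives were chosen with earlier results of these data known. Named genes are those at the 15 loops with the most PETs, the 8 gene end anchors with the most partners, the 10 higher and 10 lower called genes with the largest change (mean of at least 2 CPM, libraries apart, no predicted genes or pseudogenes), members of 4 gene lists, up to 10 loops listed in WT by PETs, and Klf4. Not all of these are described, and 1 gene is not reported here. The distal sites with many partners, the printed promoters and the values of chromosomes 11, 14 and Y were singled out after their values were seen. Alternatives were RLE factors, no filter, DESeq2 1.42.0, each library left out, other PET minimums, gene end windows and gene sets, and, added after seeing the data, leaving out chromosome 14.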

Additional observations from a re-analysis of the deposited data

How the results depend on the processing

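The number of loops, 9492, became 4864 at a PET minimum of 3 and 25791 at a minimum of 1. Their median distance of 92.0 kb became 63.2 and 180 kb, and 96.7 kb with protein-coding genes only. The share with only a gene start, by genes of known strand, was 60.1%. It was 57.0% and 64.1% at PET minimums of 3 and 1. Gene end windows of 500 bp and 2 kb gave 63.2% and 55.4%, and protein-coding genes only gave 68.2%. The share of distal sites inside a gene, 70.3%, was 61.4% with protein-coding genes only. The share with both anchors met by WT, 12.1%, was 13.4% and 10.1% at PET minimums of 3 and 1, 11.3% with a window of 2 kb, 16.3% with protein-coding genes only, and 2.40% where WT had to cover 50% of the KO anchor.

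For the genes at gene end anchors, edgeR without the filter on low counts called 0 higher and 0 lower, and 0.00734% of all 27254 tested genes, where 4021 had an unadjusted p under 0.05. In that setting the 41 called genes named here had an FDR of 0.0726 to 0.176. DESeq2 called 155 higher. Genes of loops with at least 3 PETs gave 103 lower. Leaving out 1 library at a time gave 61 to 296 higher, 90 to 377 lower, a median log2 fold change from -0.023 to 0.033 and 6.14% to 15.5% of all genes called, where the lone library is assumed to vary like the other genotype. Leaving out chromosome 14 kept each count within 1.5 times. RLE factors and DESeq2 kept all 41 calls, and 29 of 41 held without each library in turn. No called gene changed direction. Without 1 library at a time, log2 fold changes of genes not called changed sign, from -0.29 to 0.43 for Pou5f1, -0.086 to 1.19 for Klf9, -0.60 to 0.021 for Pigl, -0.20 to 0.36 for Trim71, -0.20 to 0.51 for Notch1, -0.30 to 1.15 for Klf5 and -0.35 to 0.48 for Klf2. The causes were not tested. No paired analysis was possible because the KO count columns carry no replicate number and the loop results come from pooled files with no test.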

Other observations

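On the Y chromosome, 2 of the loops joined the ends of Gm33272 and its neighbour Mid1-ps1 to 1 site outside any gene. They held 2 and 11 PETs in the KO pool and 13 and 15 in the WT pool, so that the shallower WT pool had the larger values there.

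Chromosome 11 carried 1130 of the loops, 77.9 for every 100 of its KO anchors, the most of any chromosome in number. Further distal sites with many partners lay inside Nploc4 on that chromosome (15 gene end anchors, 60 PETs, 0 in WT) and inside Igf2bp1 (13 anchors, 91 PETs, 0 in WT). A site inside Igf2bp1, an RNA-binding protein gene, met ends of Snf8, Ube2z, Cbx1 and Sp2 among others, over 24.9 to 992 kb.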
